A study of Mus musculus with 6 samples.

Results

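The 36 genes described here make and police secretory proteins in the endoplasmic reticulum (ER). They encode ER chaperones, disulfide isomerases, the translocon with its associated complex, the degradation machinery and the unfolded protein response. They were chosen by name from the symbols of the deposited normalized table, and each of the 36 names was found once among its 20161 gene rows. RNA had been sequenced from first molar tooth germs of C57BL/6 mice at postnatal day 7, with 3 libraries from Gpr115-deficient mice (Gpr115-/-, here Gpr115-KO) and 3 from wild-type littermates (WT). Gpr115, now named Adgrf4, is a receptor of the adhesion family, and the study concerned its role in enamel mineralization by ameloblasts. Both genotypes were otherwise untreated as far as the labels say, and the labels do not give the deleted part of the gene or whether germs were pooled. P-values therefore measure the spread between these libraries, which may be technical.

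A protein bound for secretion enters the ER through the Sec61 channel, folds with the help of chaperones and disulfide isomerases, and is sent to degradation if it fails to fold. The sensors IRE1, PERK and ATF6 respond to unfolded protein in the ER. IRE1 splices the Xbp1 mRNA, PERK slows translation and favours ATF4, and ATF6 is cut to release a transcription factor, and together these raise chaperone, degradation and stress genes. Ameloblasts and odontoblasts secrete large amounts of matrix protein, and mice with an amelogenin that misfolds in the ER have defective enamel.

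Many ER stress genes carry the ER stress response element in their promoters, which is CCAAT, any 9 bases and CCACG, bound by NF-Y and ATF6 or XBP1. Promoters from RefSeq (GRCm38.p6), running 250 bases before to 50 bases after each gene's start, were found for 31 of the 36 genes. Manf, Sec61a1, Ssr2, Hyou1 and Atf6 had no entry in that table. The element was searched on both strands and was present in 8 of the 31 promoters (25.8%), against 39 of all 32851 promoters in the table (0.119%). The set was chosen to hold ER folding and stress genes, so its higher share describes that choice and is no result about these teeth. This holds for the other motifs compared below as well. The matches are shown because this element is the best-known site of the response. The genes that hold it are compared with the rest after the levels. Each is printed 5′ to 3′ on its own strand with 8 flanking bases on either side, and capitals mark the fixed letters of the element.
Hspa5, chr2:34772025-34772043, plus strand: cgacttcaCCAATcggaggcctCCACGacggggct
Hsp90b1, chr10:86705638-86705656, minus strand: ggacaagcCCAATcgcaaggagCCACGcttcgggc
Hsp90b1, chr10:86705533-86705551, plus strand: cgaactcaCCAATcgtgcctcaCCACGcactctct
Dnajc3, chr14:118937827-118937845, plus strand: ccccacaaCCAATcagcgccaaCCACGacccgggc
Creld2, chr15:88819520-88819538, minus strand: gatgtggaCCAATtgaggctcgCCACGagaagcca
Calr, chr8:84847075-84847093, plus strand: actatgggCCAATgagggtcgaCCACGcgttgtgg
Canx, chr11:50325800-50325818, minus strand: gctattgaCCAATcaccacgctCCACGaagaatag
Pdia6, chr12:17266491-17266509, plus strand: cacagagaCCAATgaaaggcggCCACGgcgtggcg
Syvn1, chr19:6046532-6046550, plus strand: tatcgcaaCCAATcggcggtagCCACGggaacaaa

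Both the Hspa5 promoter and the Dnajb9 promoter are given whole, because Hspa5 is the standard readout of the response and Dnajb9 is the gene of this set with the smallest p between the genotypes. In Hspa5 the element lies from -65 to -47, counting from -1 at the base before the RefSeq start. The Dnajb9 promoter held no complete ER stress response element, and capitals there mark its matches to CCACG, the part of the element that ATF6 and XBP1 contact. That window lies wholly within Dnajb9 as the GENCODE annotation places it (chr12:44205559-44210326, minus strand). Bases upstream of the GENCODE start were therefore not searched.
Hspa5 promoter, chr2:34771840-34772139, plus strand: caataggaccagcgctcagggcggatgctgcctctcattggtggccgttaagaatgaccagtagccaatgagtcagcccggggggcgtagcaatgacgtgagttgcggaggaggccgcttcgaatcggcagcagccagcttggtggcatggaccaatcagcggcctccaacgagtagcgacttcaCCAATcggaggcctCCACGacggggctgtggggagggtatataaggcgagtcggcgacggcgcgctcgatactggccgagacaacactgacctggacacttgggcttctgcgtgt
Dnajb9 promoter, chr12:44210019-44210318, minus strand: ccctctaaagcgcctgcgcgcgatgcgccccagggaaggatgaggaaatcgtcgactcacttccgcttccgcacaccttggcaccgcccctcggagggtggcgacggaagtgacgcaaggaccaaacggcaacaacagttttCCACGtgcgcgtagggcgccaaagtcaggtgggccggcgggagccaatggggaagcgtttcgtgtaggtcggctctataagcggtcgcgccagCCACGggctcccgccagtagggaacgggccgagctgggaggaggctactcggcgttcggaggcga

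Levels are given as counts per 1e6 of the library size scaled by the trimmed mean of M values (CPM). The libraries held 8317302 to 11122821 counts, so that a single count was worth 0.0904 to 0.114 CPM. The targeted gene Adgrf4 had 39.1, 20.6 and 27.4 CPM in the Gpr115-KO libraries, against 66.9, 62.3 and 67.3 CPM in the WT libraries. Its log2 fold change was -1.18 ± 0.21 (SE), with an adjusted p of 0.0889 in edgeR's quasi-likelihood test. Adgrf4 lies on chromosome 17, which holds 0 of the 36 genes. The tooth was recognisable in both genotypes: the summed level of 6 secretory ameloblast genes was 91280 to 201244 CPM in Gpr115-KO and 106625 to 139634 CPM in WT. Ambn and Amelx made most of that sum. By gene, 5 of the 6 had a log2 fold change above 0, with a median of 0.46, and Enam (-0.14) was below. For Fam83h (0.94) and Sp6 (0.64) the genotypes did not overlap, with Gpr115-KO the higher. The lowest adjusted p of the 6 was 0.251 in edgeR's quasi-likelihood test. The part of secretory ameloblasts in the values of the set was not tested. Gpr115-KO replicate 2 stood apart from the other 5 libraries in some marker sums. It had the highest secretory ameloblast sum and the lowest sum of 6 maturation ameloblast genes (2061 CPM, against 5123 to 8771 CPM in the others). Its sum of 9 skeletal muscle genes was the highest (231 CPM, against 22.6 to 60.0 CPM). Other libraries differed in 8 genes of keratinizing oral epithelium, which summed to 280, 36.3 and 51.5 CPM in Gpr115-KO. In WT these genes summed to 139, 35.6 and 118 CPM.

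No gene of the set passed the threshold between the genotypes. Of the 36 genes, 35 had enough counts to be tested and 0 had an adjusted p under 0.05 in edgeR's quasi-likelihood test, where 0.15% of all 16011 tested genes were called (0.0375% higher and 0.112% lower). Limma-voom likewise called 0 of them, where it called 0.112% of all genes. DESeq2's Wald test called 1, which was Dnajb9, where it called 1.55% of all genes with an adjusted p. At an unadjusted p under 0.05 there were 4 (11.4%), against 12.3% of all tested genes. The fitted log2 fold change was above 0 for 20 of the 35 and below 0 for 15, with a median of 0.04, against a median of 0.01 over all tested genes.

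The precision behind these values was moderate. The standard error of the log2 fold change ran from 0.14 to 0.85 over the set, with a median of 0.19. In 4 of the 35 tested genes the 3 Gpr115-KO libraries did not overlap the 3 WT libraries: Dnajb9, P4hb and Eif2ak3 were higher in Gpr115-KO (8.55% of all tested genes were higher without overlap) and Edem1 was lower (8.99%). The share of the set without overlap, 11.4%, was below the 17.5% of all tested genes.

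**Figure D1:**
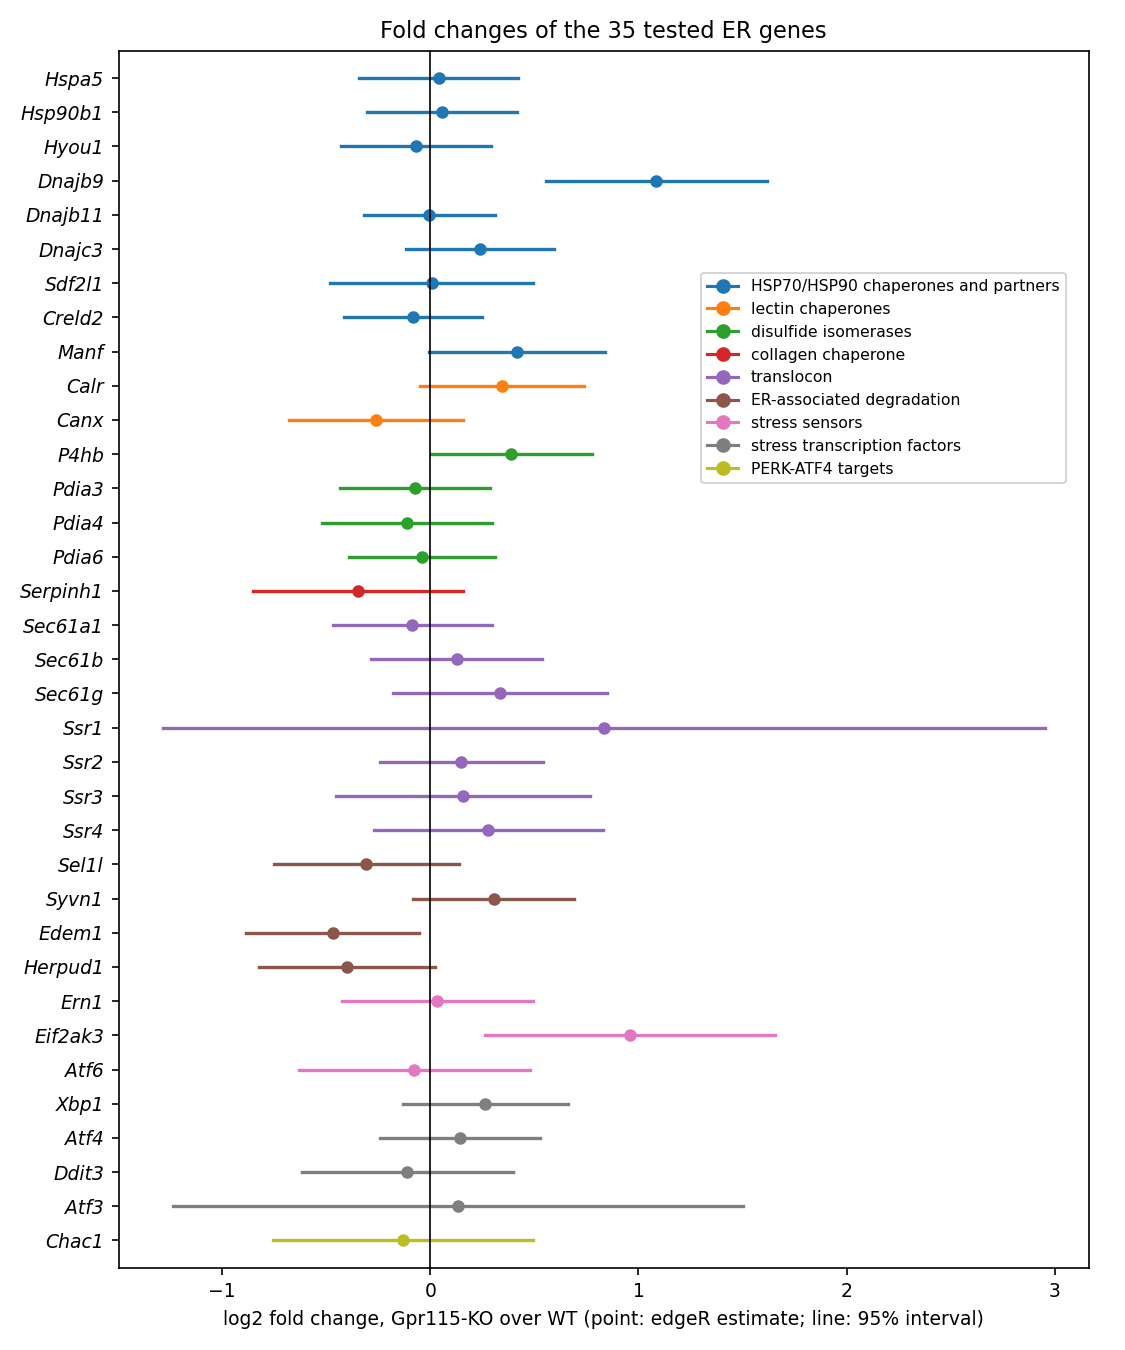
Log2 fold change of Gpr115-KO over WT for the 35 tested genes, in the order of their roles, with 95% intervals from edgeR's quasi-likelihood fit (3 libraries per genotype). Most intervals cross 0. Dnajb9, at 1.09, lies farthest to the right, and the interval of Ssr1 is the widest, from -1.29 to 2.95.

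Among the 9 chaperones and partners of the HSP70 and HSP90 systems, the libraries of 8 overlapped between the genotypes and those of Dnajb9 did not. Hspa5 encodes BiP, the HSP70 of the ER lumen that also holds the stress sensors inactive. It had 647, 539 and 698 CPM in Gpr115-KO, against 631, 582 and 620 CPM in WT, so the WT libraries lay within the Gpr115-KO range. Its log2 fold change was 0.04 (95% interval -0.34 to 0.42). Hsp90b1, encoding the HSP90 of the ER lumen (GRP94), had 400, 335 and 406 CPM in Gpr115-KO, against 352, 387 and 358 CPM in WT. The genotypes overlapped, and the log2 fold change was 0.06 (95% interval -0.30 to 0.42). The pseudogene 1810014B01Rik shares 415 nt with its exons on the opposite strand, so reads there are uncertain.

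Dnajb9 encodes ERdj4, a cochaperone of BiP that favours degradation of misfolded protein and keeps BiP on IRE1. It is a well-known target of spliced XBP1. The gene lies at chr12:44205559-44210326 on the minus strand. Its levels were 12.2, 17.4 and 14.95 CPM in Gpr115-KO, against 7.05, 5.44 and 8.41 CPM in WT, and every Gpr115-KO library lay above every WT library. The means were 14.8 ± 2.61 CPM in Gpr115-KO and 6.97 ± 1.49 CPM in WT (SD, n = 3 each), a fold of 2.12 (95% interval 1.47 to 3.07).

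That difference did not pass correction. The adjusted p for Dnajb9 was 0.151 in edgeR's quasi-likelihood test (log2 fold change 1.09 ± 0.24). It was 0.0143 in DESeq2's Wald test and 0.00613 in edgeR without a count filter, which called 1.71% of all genes, and over the 17 alternatives it ran from 0.00613 to 0.521, with a log2 fold change of 0.94 to 1.24. A processed pseudogene on chromosome X, Gm6568, is 98.1% identical over 156 nt, and it held 18 counts over all libraries, against 643 for Dnajb9.

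Marker sums of blood and bone-resorbing cells were also higher in Gpr115-KO. The 7 erythroid genes summed to 304, 395 and 158 CPM in Gpr115-KO, against 138, 142 and 158 CPM in WT. Of these 7 genes 6 were tested, and all 6 had a log2 fold change above 0. Gpr115-KO replicate 3 and WT replicate 3 had nearly the same sum. The 8 leukocyte genes summed to 86.7 to 104 CPM in Gpr115-KO and 76.1 to 86.1 CPM in WT, and the 6 osteoclast genes to 58.3 to 82.0 CPM in Gpr115-KO and 46.9 to 56.6 CPM in WT. Of the tested genes 5 of 7 leukocyte and 3 of 3 osteoclast genes were above 0, while Ptprc (-0.23) and Csf1r (-0.13) were below. The osteoclast genes Calcr, Ocstamp and Dcstamp were below the count filter, with at most 4, 10 and 14 counts in any library. Their means were lower in Gpr115-KO, at 0.132, 0.324 and 0.554 CPM, against 0.335, 0.478 and 0.820 CPM in WT. Each of the 3 sums gave p = 0.1 in a two-sided exact permutation test, the smallest possible, and 0.367 after adjustment over the 11 marker sums. No member of the 3 lists was called in edgeR's quasi-likelihood test, and their part in the Dnajb9 values was not tested. Antibody-secreting cells express XBP1 and its targets strongly, and the 6 marker genes of those cells summed to 184 to 234 CPM in Gpr115-KO and 199 to 220 CPM in WT. Sdc1, which epithelia also express, made most of that sum (170 to 208 CPM over the 6 libraries), and Ighm and Igkc had 4.99 to 7.66 CPM and 5.93 to 19.6 CPM. Jchain, Mzb1 and Cd79a were below the count filter, with at most 7, 3 and 5 counts in any library. The part of these cells in the Dnajb9 values was not tested either.

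The remaining cochaperones overlapped between the genotypes. Manf encodes a secreted factor that binds BiP and protects cells under ER stress, and it had 91.7, 150 and 134 CPM in Gpr115-KO, against 91.0, 89.0 and 101 CPM in WT. Gpr115-KO replicate 1 lay among the WT libraries and the other two above them, and the log2 fold change was 0.42 ± 0.19 (adjusted p 0.408). Dnajc3, a cochaperone that restrains PERK, had a log2 fold change of 0.24, with an interval of -0.12 to 0.59. Dnajb11, Sdf2l1, Hyou1 and Creld2 lay between -0.08 and 0.01. Dnajb11 and Sdf2l1 work together with BiP, Hyou1 exchanges its nucleotide, and Creld2 encodes a secreted ER stress protein.

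The lectin chaperones Calr and Canx, which hold glycoproteins during folding, had values on either side of 0. Calr (calreticulin) had 116, 172 and 137 CPM in Gpr115-KO, against 99.5, 119 and 117 CPM in WT. Gpr115-KO replicate 1 lay within the WT range and replicates 2 and 3 above it, and the log2 fold change was 0.35 (95% interval -0.05 to 0.74). Canx (calnexin), the membrane-bound relative, had 781, 896 and 1090 CPM in Gpr115-KO, against 1137, 1036 and 1142 CPM in WT. Gpr115-KO replicates 1 and 2 lay below the WT libraries and replicate 3 among them, and the log2 fold change was -0.26 (95% interval -0.68 to 0.16).

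Among the disulfide isomerases P4hb stood apart. It lies at chr11:120560298-120573253 and encodes protein disulfide isomerase, which is also a subunit of the collagen prolyl 4-hydroxylase. Its levels were 883, 1019 and 951 CPM in Gpr115-KO, against 647, 751 and 781 CPM in WT, without overlap. The means were 951 ± 68.2 CPM in Gpr115-KO and 726 ± 70.2 CPM in WT, and the log2 fold change was 0.39 (95% interval 0.00 to 0.78), with an adjusted p of 0.403.

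The other isomerases overlapped between the genotypes. Pdia3, the partner of the lectin chaperones, had 509, 454 and 540 CPM in Gpr115-KO, against 526, 507 and 550 CPM in WT. Pdia4 had 193, 133 and 205 CPM in Gpr115-KO, against 196, 184 and 194 CPM in WT, and the low value was that of Gpr115-KO replicate 2. Their log2 fold changes were -0.07 and -0.11, and that of Pdia6 was -0.04. Summed over the 4 isomerases the level was 1880 ± 82.2 CPM in Gpr115-KO and 1703 ± 67.2 CPM in WT (SD, n = 3 each). An exact permutation test, two-sided, gave p = 0.1, the smallest it allows with 3 against 3, and 0.556 after adjustment over the 10 sums of the set.

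Serpinh1, encoding the collagen chaperone HSP47, was the most abundant gene of the set per exonic length. It had 2186, 1715 and 2818 CPM in Gpr115-KO, against 2794, 2557 and 3196 CPM in WT. Gpr115-KO replicates 1 and 2 lay below the WT libraries and replicate 3 within their range, and the log2 fold change was -0.35 (95% interval -0.85 to 0.16). The summed level of 6 odontoblast genes, collagen genes included, also varied within the genotypes, with 74016, 52117 and 85512 CPM in Gpr115-KO and 46276, 76558 and 98400 CPM in WT. In a whole tooth germ, fewer cells of a type and less RNA per cell cannot be told apart.

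**Figure D2:**
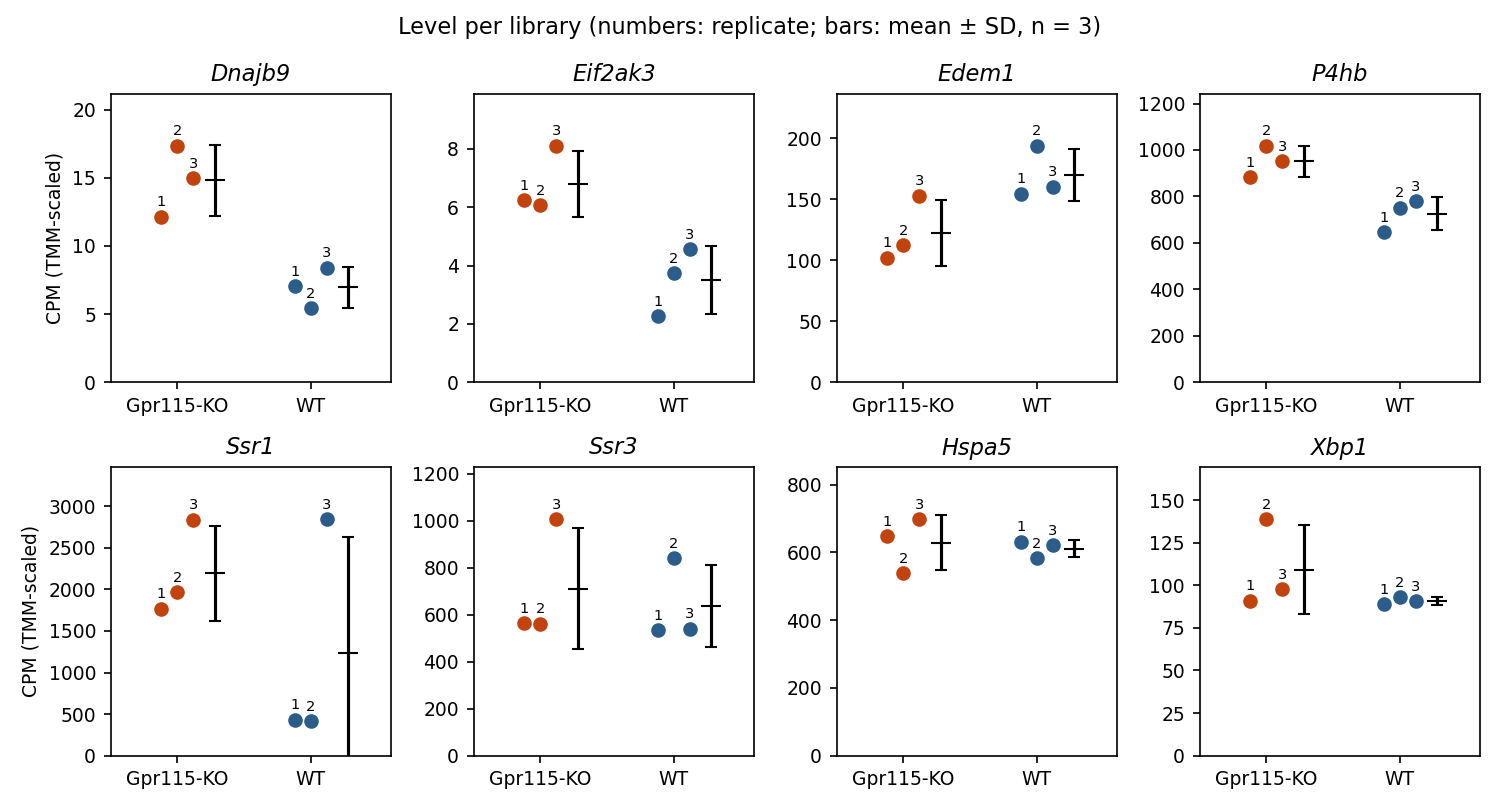
CPM of 8 genes of the set in each library, Gpr115-KO left and WT right, with the mean and SD of 3 libraries per genotype; the lower SD bar of Ssr1 in WT is cut at 0. Dnajb9, P4hb and Eif2ak3 are higher without overlap in Gpr115-KO and Edem1 is lower, while the WT libraries of Ssr1 split, with replicate 3 at 2846 CPM and the others at 430 and 415 CPM.

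The translocon held the gene with the widest range between libraries. Ssr1, at chr13:37966605-37994217, encodes the alpha subunit of the translocon-associated protein (TRAP) complex, which helps nascent chains enter the Sec61 channel. It had 1768, 1969 and 2836 CPM in Gpr115-KO, against 430, 415 and 2846 CPM in WT. WT replicates 1 and 2 were low and WT replicate 3 was at the level of Gpr115-KO replicate 3, so the highest WT library was 6.85 times the lowest. The log2 fold change was 0.83 with a 95% interval of -1.29 to 2.95 and an adjusted p of 0.745 in edgeR's quasi-likelihood test. Without WT replicate 3 it was 2.37, with an adjusted p of 0.0161 (0.139% of all genes were called in that fit), and without WT replicate 1 or 2 it was 0.43 or 0.42, so the value rests on single libraries. Limma-voom gave 1.42, with an adjusted p of 0.39. Of its neighbours on chromosome 13, Cage1 had 22.8, 18.9 and 28.8 CPM in Gpr115-KO, against 50.5, 40.9 and 30.8 CPM in WT, and was lower without overlap (log2 fold change -0.79, adjusted p 0.234). Riok1 had 39.1, 41.9 and 52.5 CPM in Gpr115-KO, against 33.7, 34.1 and 45.2 CPM in WT, and overlapped. Counts per gene do not show where in Ssr1 the reads fell, so an effect of annotation or counting at this gene was not tested.

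In the other TRAP and Sec61 genes the WT libraries did not split in this way. Ssr3, the gamma subunit, had 564, 563 and 1008 CPM in Gpr115-KO, against 535, 841 and 540 CPM in WT. Each genotype had a single high library, replicate 3 in Gpr115-KO and replicate 2 in WT, and the log2 fold change was 0.16 ± 0.27. Ssr4, the delta subunit, had 177, 343 and 222 CPM in Gpr115-KO, against 173, 189 and 249.4 CPM in WT, with replicate 2 the high Gpr115-KO library. Sec61g, a small subunit of the channel, had 89.5, 119 and 98.1 CPM in Gpr115-KO, against 53.8, 83.9 and 106 CPM in WT.

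The log2 fold changes of Ssr4 and Sec61g were 0.28 and 0.33, both with intervals across 0. Ssr2, Sec61b and Sec61a1, encoding the beta subunit of TRAP, the beta subunit of the channel and the channel itself, gave 0.15, 0.13 and -0.09. Sec61b, Sec61g and Ssr2 have near-identical copies elsewhere in the genome, so their counts may be divided among these. Sec61a1 shares 549 nt with the antisense transcript Gm44170. Over the 7 translocon genes 6 values lay above 0, with a median of 0.16. Their summed level was 4035 ± 871 CPM in Gpr115-KO and 2924 ± 1465 CPM in WT, of which Ssr1 made the larger part in Gpr115-KO (two-sided exact permutation p = 0.3, 0.556 adjusted over the 10 sums).

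Of the 4 ER-associated degradation genes of the set, 3 had a log2 fold change below 0, and with 12 further degradation genes 7 of 16 lay below 0 and 9 above. Edem1 encodes a mannosidase-like protein that hands misfolded glycoproteins to degradation and is a target of spliced XBP1, as Dnajb9 is. The gene lies at chr6:108828641-108859356. It had 102, 112 and 153 CPM in Gpr115-KO, against 155, 194 and 160 CPM in WT, all Gpr115-KO libraries below all WT libraries, though Gpr115-KO replicate 3 only just. The means were 122 ± 26.9 CPM in Gpr115-KO and 170 ± 21.3 CPM in WT, and the log2 fold change was -0.47 (95% interval -0.88 to -0.05), with an adjusted p of 0.351. The values of Dnajb9 and Edem1 lay on opposite sides of 0, and neither was called in edgeR's quasi-likelihood test. The part of spliced XBP1 in either value was not tested.

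Herpud1 encodes a membrane protein that organises the HRD1 ubiquitin ligase. It had 93.1, 73.6 and 115 CPM in Gpr115-KO, against 109, 142 and 122 CPM in WT, so that Gpr115-KO replicate 3 fell within the WT range. Its log2 fold change was -0.40 (95% interval -0.82 to 0.02). Syvn1, the ligase itself, and Sel1l, its adaptor, gave 0.30 and -0.31, and neither passed the test. Gpr115-KO replicate 2 was the low library for Sel1l, with 35.5 CPM against 58.3 to 67.6 CPM in the other 5.

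Of the sensors, Eif2ak3 differed without overlap. It lies at chr6:70844515-70905245 and encodes PERK, the kinase that slows translation under ER stress. Its levels were low, 6.25, 6.07 and 8.12 CPM in Gpr115-KO (55, 57 and 89 counts), against 2.26, 3.74 and 4.56 CPM in WT (25, 33 and 45 counts). The fold was 1.94, the log2 fold change 0.96 (95% interval 0.26 to 1.65) and the adjusted p 0.283, and over the 17 alternatives the adjusted p ran from 0.138 to 0.797. The transcript Gm43292 shares 485 nt with the Eif2ak3 exons on the opposite strand, and because the libraries were not stranded the reads there could belong to either.

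The other sensors overlapped. Ern1, encoding IRE1 alpha, had 12.2, 13.0 and 9.94 CPM in Gpr115-KO, against 10.1, 11.9 and 12.3 CPM in WT, with a log2 fold change of 0.03 (95% interval -0.43 to 0.49). Atf6 had 19.2, 13.7 and 25.3 CPM in Gpr115-KO, against 23.9, 15.2 and 22.4 CPM in WT, and replicate 2 was the low library in both genotypes. Its log2 fold change was -0.08 (95% interval -0.63 to 0.48).

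None of the transcription factors or PERK branch targets passed the test. Xbp1 had 91.0, 139 and 97.6 CPM in Gpr115-KO, against 88.8, 93.0 and 90.7 CPM in WT, and the high library was Gpr115-KO replicate 2. Atf4 had 93.7, 113 and 101 CPM in Gpr115-KO, against 78.5, 86.9 and 113 CPM in WT, and the genotypes overlapped. Their log2 fold changes were 0.26 and 0.14, and counts per gene show neither the splicing of Xbp1 nor the translation of Atf4. Ddit3, encoding the pro-apoptotic factor CHOP, gave -0.11 (95% interval -0.62 to 0.39). Atf3, a stress-induced factor, was low and uneven, at 0.682 to 3.20 CPM in Gpr115-KO and 0.907 to 1.90 CPM in WT.

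Chac1, an ATF4 target that degrades glutathione, had 31.5, 31.2 and 47.0 CPM in Gpr115-KO, against 28.3, 33.7 and 58.5 CPM in WT. The highest library of each genotype was replicate 3, and the log2 fold change was -0.13 (95% interval -0.76 to 0.49). Trib3, encoding a pseudokinase induced by ATF4 and CHOP, was the single gene below the count filter. It had 6, 2 and 4 counts in Gpr115-KO (0.682, 0.213 and 0.365 CPM), against 16, 7 and 11 counts in WT (1.45, 0.793 and 1.11 CPM). The counts do not overlap, but without the filter the log2 fold change was -1.41 ± 0.76 and the adjusted p 0.525.

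**Figure D3:**
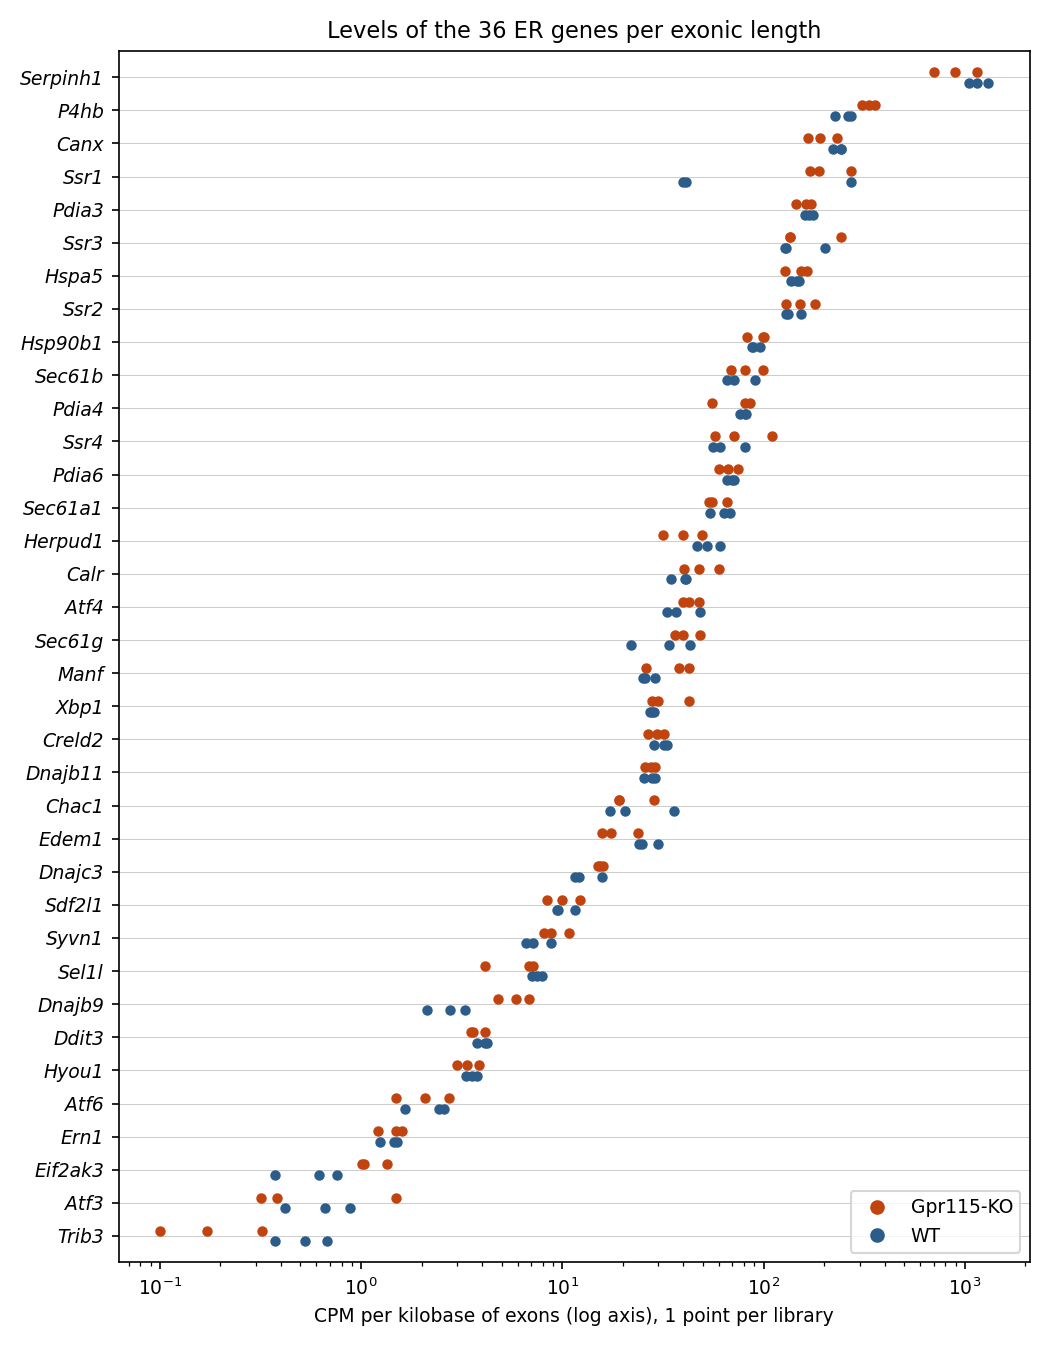
Level of each of the 36 genes per kilobase of exons, as CPM per kb on a log axis, in order of the mean over all 6 libraries, with a point for each library. Serpinh1 is highest and Trib3 lowest, and the 3 sensors stand among the 5 lowest genes.

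Levels of different genes were compared per exonic length, in the order of the mean over all 6 libraries. That length counts every base of any annotated exon of a gene, and it can exceed the length of the mRNA present. Ssr4, for example, has 3096 nt in 2 exon blocks at chrX:73787028-73790830. The ranks are therefore approximate. Serpinh1 led with 917 ± 226 CPM per kb in Gpr115-KO and 1166 ± 132 CPM per kb in WT, followed by P4hb with 332 ± 23.8 in Gpr115-KO and 254 ± 24.5 in WT and Canx with 197 ± 33.3 in Gpr115-KO and 235 ± 12.8 in WT. Ssr1 came next, with 210 ± 54.4 CPM per kb in Gpr115-KO and 118 ± 134 in WT, and so stood above Canx in Gpr115-KO. P4hb and Canx overlapped in WT at the level of their SD. Hspa5 stood 7th, with 148 ± 19.2 CPM per kb in Gpr115-KO and 145 ± 6.12 in WT. The lowest 5 were Atf6, Ern1, Eif2ak3, Atf3 and Trib3, and Trib3 had 0.198 ± 0.113 CPM per kb in Gpr115-KO and 0.526 ± 0.154 in WT. All 36 genes together took 0.945% to 1.32% of the scaled counts, with 11219 ± 1716 CPM in Gpr115-KO and 10670 ± 1912 CPM in WT (two-sided exact permutation p = 0.5, 0.556 adjusted over the 10 sums).

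Libraries of a single genotype also differed from each other across the set. Gpr115-KO replicate 2, the library with the high muscle and ameloblast sums, was the highest of the 6 for 12 of the 35 tested genes (34.3%, against 26.3% of all tested genes) and the lowest for 10 (28.6%, against 24.9%). The genes highest there included Dnajb9, Manf, Calr, P4hb, Xbp1 and Ssr4, and those lowest there included Hspa5, Hsp90b1, Pdia4, Serpinh1, Sel1l and Herpud1. In this library the deviation of log2 CPM from the mean of the 6 libraries fell with exonic length. Spearman's rho was -0.252 over 15884 genes and -0.193 over the 35 tested genes of the set. The genes of the set highest there had a median exonic length of 2705 nt, and those lowest there 3888.5 nt. The part of length in the opposite directions of these genes was not tested.

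WT replicate 1 was the lowest for 13 genes (37.1%, against 20.5% of all tested genes), and had the lowest odontoblast sum, 46276 CPM. WT replicate 3 was the lowest for 0 genes (against 10.9% of all tested genes) and the highest for 10 (28.6%, against 10.2%). It had the highest odontoblast sum, 98400 CPM. Gpr115-KO replicate 3 had the second highest odontoblast sum. It was the highest for 10 genes (28.6%, against 16.4%) and the lowest for 1 (2.86%, against 17.1%). Gpr115-KO replicate 1 was the highest for 0 (against 13.9% of all tested genes) and the lowest for 8 (22.9%, against 13.9%). Gpr115-KO replicate 2, the highest for 12, had the second lowest odontoblast sum, 52117 CPM. The part of these cell types in the values was not tested. Without Gpr115-KO replicate 2 the log2 fold changes of Dnajb9, P4hb, Eif2ak3 and Edem1 were 0.96, 0.34, 1.04 and -0.41, and with the trend of each library on exonic length removed they were 1.04, 0.36, 1.02 and -0.39.

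**Figure D4:**
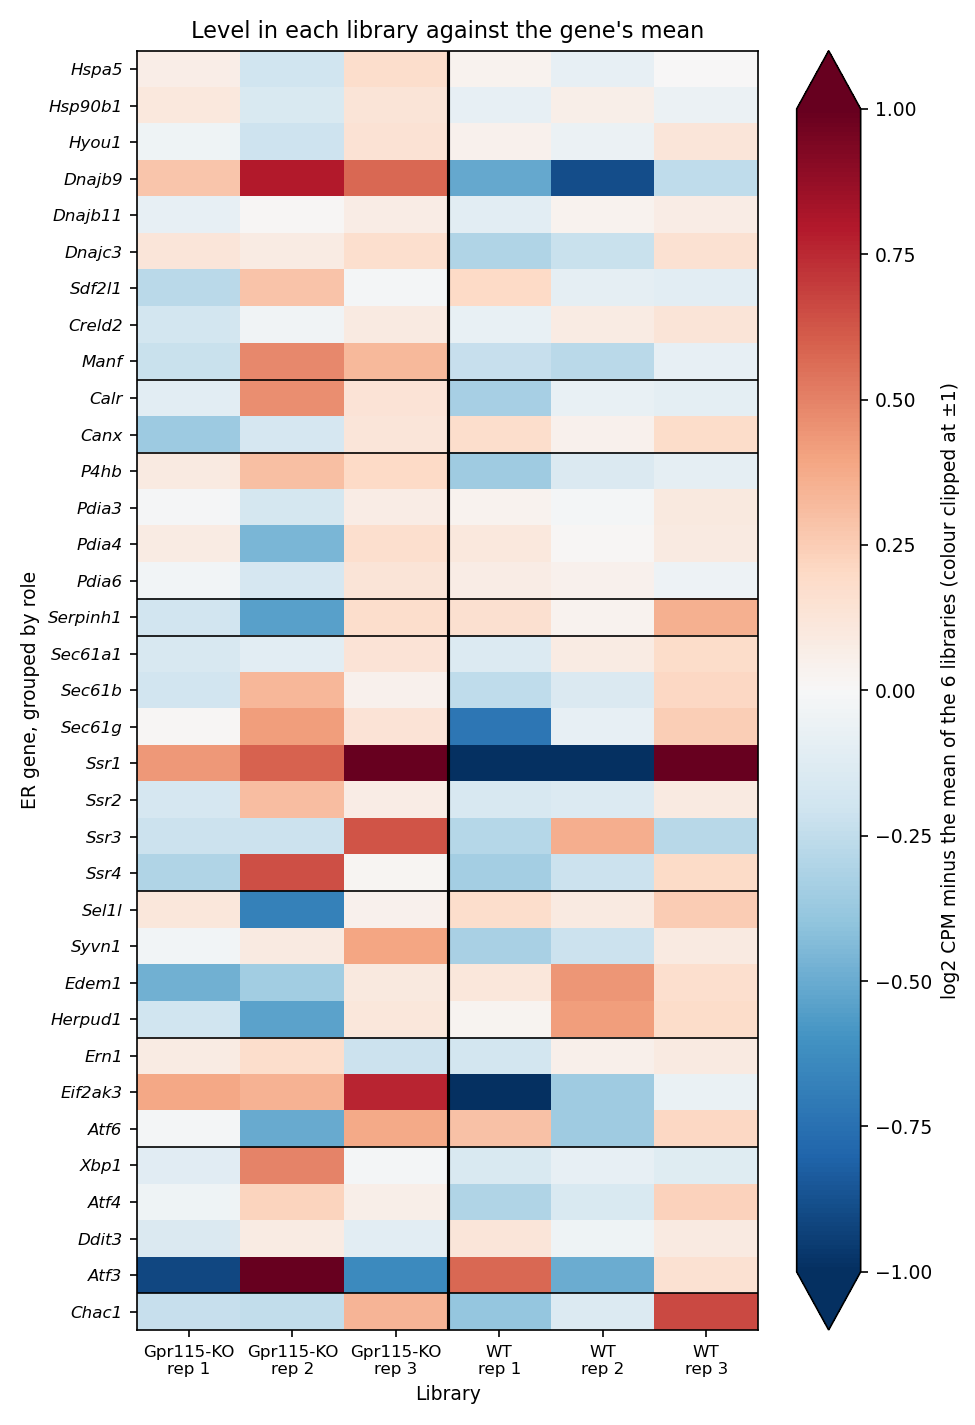
Deviation of each gene's log2 CPM in each library from its mean over the 6 libraries, for the 35 tested genes in the order of their roles, Gpr115-KO libraries left and WT libraries right. Gpr115-KO replicate 2 has both the highest value for 12 genes and the lowest for 10, and Ssr1 is low in WT replicates 1 and 2 alone.

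The genes with and without an ER stress response element were compared as a description. The 8 genes with the element, Hspa5, Hsp90b1, Dnajc3, Creld2, Calr, Canx, Pdia6 and Syvn1, had log2 fold changes from -0.26 to 0.35 with a median of 0.05, and 0 of them differed without overlap. The 22 tested genes that lacked it in the bases searched ran from -0.47 to 1.09 with a median of 0.08. All 4 tested genes without overlap were among these 22. Over all tested genes 17.5% differed without overlap, and whether the 2 groups differ in this was not tested. The core CCACG, which the longer element contains, was in 22 of the 31 promoters (71.0%, against 32.8% of all promoters). TGACGTGG, the unfolded protein response element, was in 0 of 31 (0.676% of all promoters).

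A further form of the element, ATTGG, any base and CCACG, was in the promoters of Dnajb11 and Herpud1 (6.45%, against 0.0365% of all promoters), and this search was added after the data were seen. The composite element to which ATF4 binds, TGATGNAA, was in 4 of 31 promoters (12.9%, against 3.97%). Trib3 and Chac1 are the PERK branch targets of the set, Atf3 is a stress transcription factor and Herpud1 a degradation gene. No match was found for Atf4 or Ddit3. In the 250 bases before the start alone, 3 of 31 held it (9.68%, against 3.45%), and Trib3 did not. All 4 matches are shown, with capitals for the fixed letters.
Herpud1, chr8:94386317-94386324, minus strand: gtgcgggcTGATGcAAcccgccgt
Atf3, chr1:191183436-191183443, plus strand: ggacttggTGATGcAAgtgcgaga
Trib3, chr2:152344039-152344046, plus strand: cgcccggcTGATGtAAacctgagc
Chac1, chr2:119351049-119351056, minus strand: ggcaggagTGATGcAAcggcaggg
The log2 fold changes of Herpud1, Atf3 and Chac1 were -0.40, 0.13 and -0.13, and Trib3 was not tested. A match shows that the letters are present, and says nothing of binding in these teeth.

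The rest of the secretory pathway was examined through 78 further genes, of which 75 were tested and 0 were called in edgeR's quasi-likelihood test. Their log2 fold change was above 0 for 46 of the 75, with a median of 0.08. At an unadjusted p under 0.05 there were 11 (14.7%, against 12.3% of all tested genes), and 8 were higher and 5 lower without overlap (17.3%, against 17.5% of all tested genes). Srp9 belongs to the signal recognition particle, which brings ribosomes to the ER. It had a log2 fold change of 0.81 ± 0.26 (adjusted p 0.282), and Srp19 of the same particle 0.40.

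For each remaining list the pair of genes with the smallest p was as follows, none of them called. Tram2, a translocon partner linked to collagen synthesis, gave -0.53, and Sec11c, a signal peptidase subunit, 0.56. Tusc3 and Ostc of the oligosaccharyltransferase, which attaches N-glycans, gave 0.44 and 0.38. Plod2 and Crtap, which modify collagen in the ER, gave 0.38 and 0.43.

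In degradation, the lectin gene Erlec1 gave 0.43 and Derl2, encoding a derlin of the retrotranslocation machinery, -0.39. Of these 12 further degradation genes 8 lay above 0, with a median of 0.18. Without overlap 4 were higher and 2 lower (50% of the list, against 17.5% of all tested genes), and 5 had an unadjusted p under 0.05 (41.7%, against 12.3%). Tnfrsf10b, a death receptor induced by CHOP, gave -0.51 with an adjusted p of 0.291. Ddit4, a stress-induced inhibitor of mTOR signalling, gave 0.48. The pathway lists, like the set itself, held values on both sides of 0.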

How the data were processed

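RNA from first molars was made into libraries with a Nextera XT kit, which does not mark strand, and sequenced on a HiSeq1500, per the labels' protocols. The build GRCm38 (mm10) and the tools STAR 2.5.2a, edgeR, limma and DESeq2 are listed per the submitters' processing notes; how reads were counted, and against which annotation, is not stated there. Raw counts for 48709 gene rows were deposited, with a normalized table whose values, treated here as a signal, are scaled CPM by its name. Whole reads came back from 100% of its values (within 0.01 reads), and edgeR on those reads called 6 genes higher and 18 lower, as on the counts. Rows for transgene sequences, at most 8 counts per library, were left out.

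The counts were fitted in edgeR 4.0.16 (R 4.3.3): filterByExpr (minimum count 10, minimum total 15), scaling by trimmed mean of M values, a robust quasi-likelihood fit on genotype, two-sided, adjusted by Benjamini-Hochberg over 16011 genes and called under 0.05. This called 24 genes. Standard errors come from the fold change and its F statistic (size of the log2 value over root F), and intervals are 95%. CPM carry no pseudocount. Sums over lists were compared by exact permutation tests, which with 3 against 3 cannot go below 0.1. Exonic lengths, overlaps and copies (95% identity over at least 150 nt) are from GENCODE vM21 of the same build; the promoters' starts are those of RefSeq. Of the set, 10 genes share exonic bases with a gene on the opposite strand, over 0.549% to 12.8% of their exons.

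Libraries of a genotype differed far beyond sampling noise, with a chi-square per degree of freedom of 14.8 to 60.7. The members and lists were chosen with earlier results of these data known. Values in every library are given for genes called or without overlap, and, per role, for the pair with the smallest p and the pair with the highest level per length; the rest are given by fold change. From each further list the called genes are named, otherwise the pair with the smallest p. Alternatives were DESeq2 size factors, library totals, other count filters, the DESeq2 1.42.0 Wald test, limma-voom (limma 3.58.1), the replicate number as a block, removal of the trend on exonic length, limma-trend on the normalized table (log2 after adding 1 or 0.5), and each library left out.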

Additional observations from a re-analysis of the deposited data

How the results depend on the processing

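Over the 17 alternatives 21 of the 35 tested genes kept the sign of their log2 fold change and 14 did not in at least 1, and 2 genes were called in at least 1. Called genes in all, 6 higher and 18 lower, came to 135 and 365 without a count filter, 64 and 179 with DESeq2's Wald test, and 11 lower with library totals alone. With each library left out in turn they ran from 5 to 10 higher and from 7 to 39 lower, and the set held 0 to 1 called higher. Within the set 1 gene was called higher without a count filter and 1 with DESeq2's Wald test, Dnajb9 both times, and Ssr1 was called without WT replicate 3. The replicate block gave 18 higher and 54 lower and called 0 of the set, with 1.09 for Dnajb9 and 1.45 for Ssr1. Same-numbered libraries had correlations of deviations of 0.25, 0.03 and -0.06, and not every library correlated best with its own number. The labels do not say whether a number marks a shared litter or day. With 3 libraries per genotype, each centred on its genotype mean, these correlations cannot decide it.

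The genes that changed sign had log2 fold changes from -0.13 to 0.28 with the settings reported. With library totals alone Dnajb11 was 0.0762, Hyou1 0.0185, Pdia3 0.0112, Pdia6 0.0422 and Atf6 0.0164; that scaling put the median of all genes at 0.09. Dnajb11 was 0.000123 with DESeq2 size factors and 0.000417 with DESeq2. With the length trend removed Hyou1 was 0.0246, Atf6 0.0446 and Sdf2l1 -0.139. Sdf2l1 was -0.00724 with limma-voom, -0.00222 with the replicate block, and -0.00685 and -0.00759 with limma-trend plus 1 and plus 0.5; Atf3 was -0.175, -0.0928, -0.0216 and -0.0588. With each library left out, the ranges were -0.0494 to 0.14 (Ern1), -0.318 to 0.119 (Atf6), -0.0550 to 0.0357 (Dnajb11), -0.146 to 0.127 (Sdf2l1), -0.899 to 0.479 (Atf3), -0.356 to 0.241 (Chac1), -0.164 to 0.0148 (Hyou1), -0.233 to 0.0586 (Pdia4), -0.121 to 0.0323 (Pdia6), -0.0195 to 0.274 (Sec61b), -0.0296 to 0.469 (Ssr4), -0.0440 to 0.139 (Hspa5) and -0.180 to 0.403 (Ssr3). The cause was not tested.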
